A study of Mus musculus with 8 samples.

Results

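The genes described here are 42 chaperone and unfolded protein response (UPR) genes, chosen by symbol as a list of known members of these systems, with no measured value in the rule, although earlier results of these data were known when the list was made. All 42 were in the table of 53819 genes, and all 42 were among the 13722 genes with enough counts to be tested. They fall into 15 ER chaperones and folding enzymes, 4 UPR sensors and transcription factors, 4 genes of ER-associated degradation (ERAD), 7 genes of the ATF4 arm, 10 cytosolic heat shock genes and the 2 genes of the mitochondrial chaperonin. RNA came from bone-marrow derived macrophages (BMDM) of 4 female BALB/cJ mice aged 8 weeks, grown for 5 days with 25 ng/mL M-CSF, the growth factor that turns marrow cells into macrophages. From each mouse, numbered 1 to 4, 1 culture then received 2.5 µM bilirubin, the product of heme breakdown, and 1 received its solvent DMSO (vehicle), both for 48 hours, which gives 8 poly A libraries. The labels name no transgene, deletion or other agent, and a group is therefore 4 cultures of 1 strain, 1 sex and 1 dose. The comparison asks which of these stress genes differed between bilirubin and vehicle, and whether the ER chaperones, the ATF4 arm and the heat shock genes moved alike.

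As background, proteins that enter the endoplasmic reticulum (ER) are folded there by chaperones such as BiP (*Hspa5*) and by disulfide isomerases, and unfolded protein is sensed by IRE1 (*Ern1*), PERK (*Eif2ak3*) and ATF6. IRE1 removes a short intron from *Xbp1* mRNA so that an active transcription factor is made, ATF6 is cleaved into another, and both switch on ER chaperone and ERAD genes, while PERK phosphorylates eIF2alpha and so favors translation of ATF4, which drives amino acid synthesis genes and *Ddit3* (CHOP). The cytosol and mitochondria have chaperones of their own, many of them controlled by heat shock factor 1 (HSF1). Macrophages secrete enzymes and cytokines that pass through the ER.

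Sequence elements known from these responses were looked for in the promoters of the genes, and the matches are shown so that the genes holding them can be followed in the results. The groups were set by symbol and not by these elements. The ER stress response element (ERSE), CCAAT followed after 9 bases by CCACG, was searched on both strands in the 250 bases before and the 50 bases from the start of the most abundant transcript of each gene, in the GRCm39 genome. It was found in 15 of 13704 promoters (0.109%), and 8 of these 15 were among the 42 genes, 7 of them ER chaperones. Each stretch below is on the strand of its gene, with the element in capitals. Where it lies on the opposite strand it begins with CGTGG.
Hspa5: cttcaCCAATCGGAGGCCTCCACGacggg
Hsp90b1, distal: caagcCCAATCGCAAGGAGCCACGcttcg
Hsp90b1, proximal: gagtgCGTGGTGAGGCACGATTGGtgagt
Calr: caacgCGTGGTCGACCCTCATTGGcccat
Canx: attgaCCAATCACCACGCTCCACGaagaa
Pdia6: agagaCCAATGAAAGGCGGCCACGgcgtg
Dnajc3: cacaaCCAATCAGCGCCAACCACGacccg
Creld2: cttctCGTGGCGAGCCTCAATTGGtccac
Syvn1: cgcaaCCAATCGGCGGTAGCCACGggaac
The *Hspa5* stretch is chr2:34662032-34662060 on the plus strand, and its element begins 67 bases before the start. That of *Calr* is chr8:85573699-85573727 on the minus strand, 55 bases before the start. The related ERSE-II, ATTGG followed after 1 base by CCACG, was found in 13 of 13704 promoters (0.0949%), among them those of *Dnajb11*, *Hyou1* and *Herpud1*. A heat shock element of 3 inverted units, GAANNTTCNNGAA on either strand, was found in 64 promoters (0.467%), and among the 42 genes in *Hspd1* and *Hspe1* but in 0 of the 10 cytosolic heat shock genes. *Hspd1* and *Hspe1* lie head to head and share the stretch chr1:55127213-55127240, given here on the strand of *Hspe1* with the overlapping elements in capitals.
Hspd1 and Hspe1: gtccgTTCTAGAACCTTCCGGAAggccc
The ATF4-binding sequence TGATGNAA was found in 366 promoters (2.67%), and in *Ddit3*, *Chac1* and *Herpud1* of the 42. A match describes the letters in these windows only.

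Expression is given as CPM, counts scaled to a common library size, after TMM scaling, which adjusts the libraries for their composition. A difference is the log2 fold change of bilirubin over vehicle, fitted by edgeR with a term for the mouse and tested by its quasi-likelihood method, which compares the cultures within mice. A gene was called when its p, after Benjamini-Hochberg adjustment over the 13722 genes, was under 0.05. Libraries held between 34142781 and 47071714 counts on genes, and the bilirubin culture of mouse 1 had the fewest. In bulk RNA, a change in the share of cells that express a gene and a change in RNA per cell cannot be told apart. All 12 macrophage markers were above 1 CPM in every library. Their summed level was 25010 to 25310 CPM in vehicle and 29240 to 31370 CPM in bilirubin cultures. The most abundant genes weigh most in such a sum, so it does not show that each marker rose. Nor does it show a larger share of macrophages. Summed neutrophil markers were 33.4 to 40.2 CPM in vehicle and 45.4 to 54.6 CPM in bilirubin cultures, with 8 of 11 genes above 3 counts in any library. B and plasma cell markers stood at 2.55 to 3.13 and 1.02 to 2.24 CPM, with *Mzb1*, itself an ER chaperone of plasma cells, at 0 throughout. Erythroid and megakaryocyte markers summed to 51.6 to 61.8 and 33.8 to 42.8 CPM, with only 1 of 9 genes above 1 CPM in every library. Those of T and NK cells, dendritic cells, and mast cells and basophils each summed to at most 1.24 CPM in any library, and stromal and endothelial markers to 12.1 to 23.3 CPM. The part of these differences between groups in the results for the 42 genes was not tested.

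For most of these genes the difference between bilirubin and vehicle was small and narrowly bounded. With bilirubin, 2 of the 42 genes were upregulated, the disulfide isomerase *P4hb* and the heat shock gene *Hspa1b*, and 2 were downregulated, the stress gene *Sesn2* and the heat shock factor *Hsf1*. Of all tested genes 4.49% were called higher, 3.04% lower and 7.53% in either direction, against 4 of 42 (9.52%) here. At an unadjusted p under 0.05, 11 of the 42 passed, as did 2851 of the 13722 tested genes. The median log2 fold change was 0.01 over the 42 genes and -0.00 over all tested genes. The 95% confidence interval of the fold change lay within 1.5-fold in either direction for 39 of the 42 (92.9%), against 73.7% of all tested genes, and the exceptions were *Trib3*, *Hspa1a* and *Hspa1b*, with *Chac1* just inside. Intervals tend to be narrower where counts are high, and the median SE was 0.047 over the 42 genes and 0.067 over all tested genes. The part of expression level in this contrast was not tested. The 4 bilirubin libraries lay above all 4 vehicle libraries for 2 genes, *P4hb* and *Pdia3*, and below them for 0. Of all tested genes, 5.93% lay above and 4.69% below in this way.

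**Figure D1:**
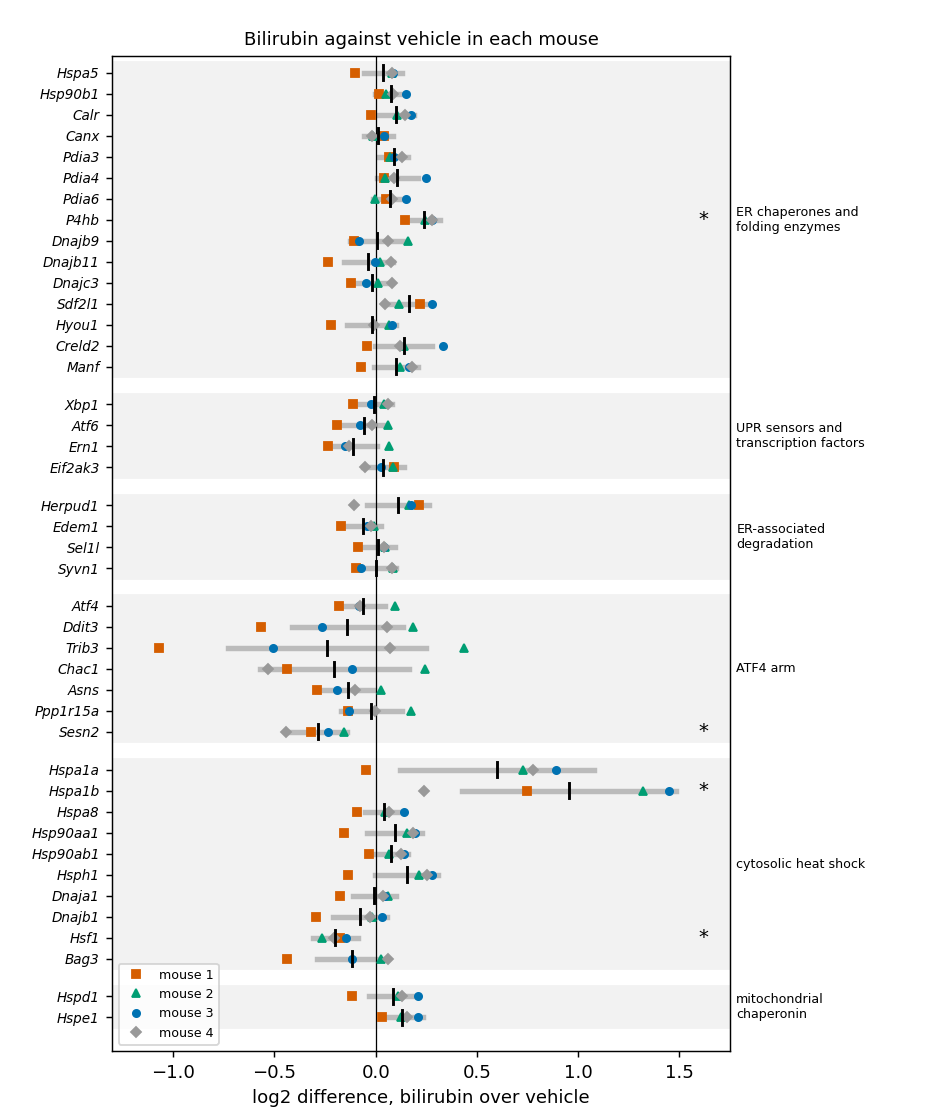
Log2 difference of bilirubin over vehicle (x axis) for each of the 42 genes (rows, by group), with 1 symbol a mouse, the fitted fold change as a black tick, its 95% confidence interval as a grey bar and a star where the adjusted p was under 0.05. Most symbols lie near 0, mouse 1 (orange squares) is the lowest of the 4 mice for 33 of the 42 genes, and the widest bars are those of *Trib3*, *Hspa1a* and *Hspa1b*.

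The 42 genes covered a wide range of levels in the vehicle cultures, and the most abundant were chaperones. Scaled for transcript length as TPM, the mean vehicle level was highest for *Hspa8*, the constitutive cytosolic HSP70, at 1353 ± 26.0 (SD, n = 4), which 99.5% of tested genes fell below. The ER calcium-binding chaperone *Calr* was at 982 ± 34.7 TPM, *Hsp90ab1* at 795 ± 18.6 TPM and *Hspa5* at 595 ± 4.26 TPM, and these neighbours did not overlap within 1 SD. *P4hb* (496 ± 13.4 TPM) and *Hsp90b1* (496 ± 17.6 TPM) could not be ordered. At the other end of the list, the inducible HSP70 genes *Hspa1a* and *Hspa1b* were at 0.95 ± 0.218 and 0.989 ± 0.269 TPM, and *Chac1* was at 4.27 ± 0.459 TPM. The constitutive and the stress-inducible HSP70 genes thus stood at the opposite ends of the vehicle levels.

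**Figure D2:**
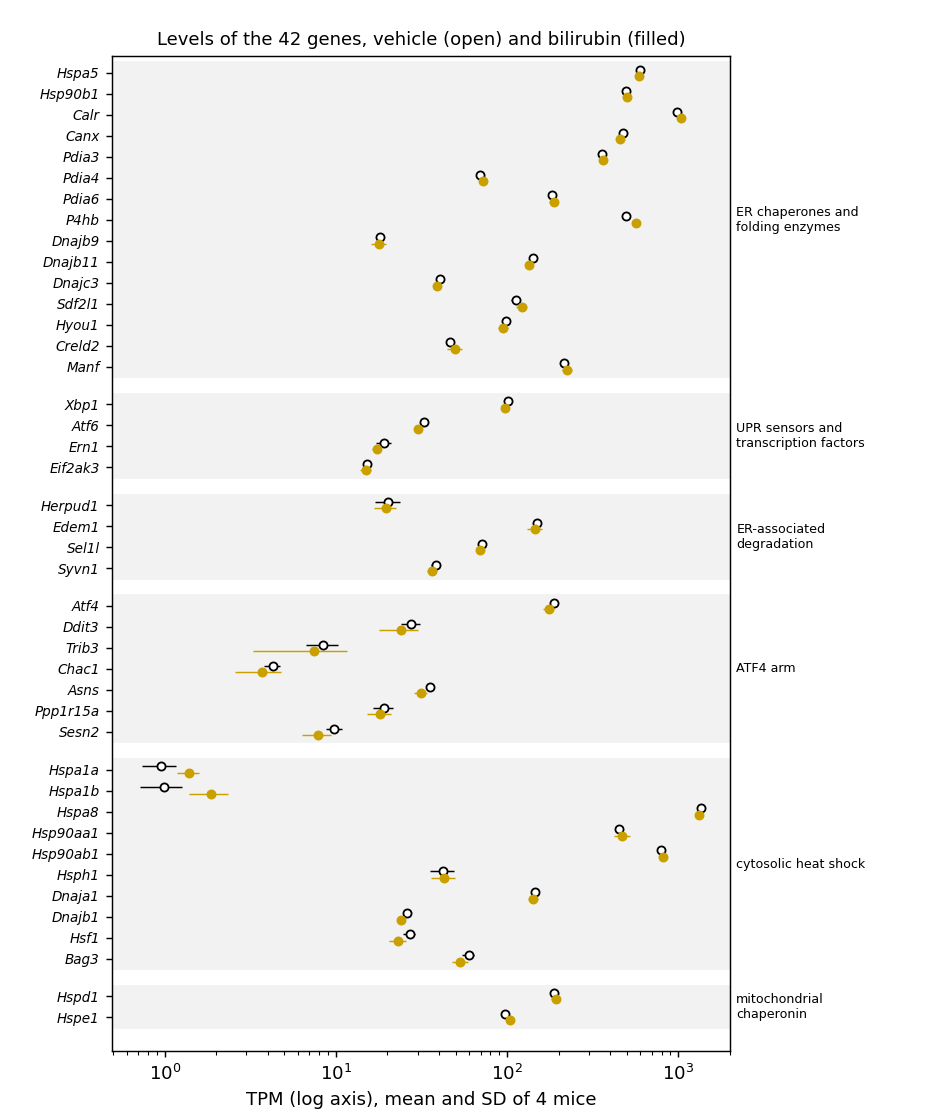
Mean TPM (x axis, log scale) with SD over 4 mice for each of the 42 genes in vehicle (open) and bilirubin (filled) cultures. *Hspa8* (1353 TPM in vehicle) and *Calr* (982 TPM) are the highest, *Hspa1a* and *Hspa1b* are the lowest, and open and filled symbols nearly coincide for most genes.

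Among the 15 ER chaperones and folding enzymes, *P4hb* was upregulated, none was downregulated and 14 did not pass the test, and the median log2 fold change was 0.08. *P4hb* encodes protein disulfide isomerase (PDI), which forms and rearranges disulfide bonds, and lies on the minus strand of chromosome 11, from 120451122 to 120464538 (GRCm39). It stood at 609, 633, 642 and 626 CPM in the vehicle cultures of mice 1 to 4 and at 674, 749, 779 and 760 CPM in their bilirubin cultures. Every bilirubin library was above every vehicle library, and mouse 1 rose least. The log2 fold change was 0.24 ± 0.04 (SE, 4 mice, higher in 4 of 4), with an edgeR adjusted p of 0.00475. Under the 12 alternative analyses this p ranged from 3.92e-07 to 0.0605, and *P4hb* passed in 10, the exceptions being those without mouse 3 (0.0605) and without mouse 4 (0.0538).

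*Pdia3*, the isomerase that works with calnexin and calreticulin on glycoproteins, was at 549, 549, 541 and 560 CPM in vehicle and 575, 577, 576 and 611 CPM in bilirubin cultures. Here too the groups did not overlap, with mouse 4 apart from the other 3 bilirubin libraries. The difference was small, with a log2 fold change of 0.09 ± 0.03 (SE, n = 4), and did not pass (edgeR adjusted p = 0.139). *Sdf2l1*, a partner of BiP, had 0.17 ± 0.05 and was higher in 4 of 4 mice (edgeR adjusted p = 0.0728). The isomerase *Pdia4* had 0.11, the co-chaperone *Creld2* 0.14, *Calr* 0.10 and the secreted ER protein *Manf* 0.10, none of which passed in edgeR, with adjusted p from 0.191 for *Calr* to 0.293 for *Manf*.

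BiP itself, the ER HSP70 that binds unfolded protein and is the usual readout of ER stress, was close to its vehicle level. *Hspa5* stood at 766, 759, 753 and 745 CPM in vehicle cultures and at 715, 803, 798 and 787 CPM in bilirubin cultures of mice 1 to 4. The bilirubin library of mouse 1 was below all vehicle libraries and the other 3 were above them. The log2 fold change was 0.04 (95% interval -0.06 to 0.13, edgeR adjusted p = 0.692), a fold of 1.03 with an interval from 0.962 to 1.09. For *Hsp90b1*, the ER HSP90, it was 0.08 (-0.00 to 0.15), for the lectin chaperone *Canx* 0.01 (-0.06 to 0.08), for the isomerase *Pdia6* 0.07 (-0.01 to 0.15) and for *Hyou1*, which exchanges nucleotide on BiP, -0.02 (-0.14 to 0.10). The BiP co-chaperones *Dnajb9*, *Dnajb11* and *Dnajc3* had 0.01, -0.04 and -0.02, and none of these 3 was above 0 in every mouse.

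Of the 15 promoters with an ERSE, the 8 whose elements are printed above and 7 of other genes, 0 belonged to a gene called by edgeR, DESeq2 or limma voom, and 2 to a gene with an unadjusted p under 0.05 (*Calr* and *Ero1b*). Of all tested genes 7.53% were called, and nothing is read from a count of 0 among 15. Without mouse 1, *Calr* (edgeR adjusted p = 0.0101) and *Creld2* (0.0289) passed. The 8 among the 42 genes had log2 fold changes from -0.02 (*Dnajc3*) to 0.14 (*Creld2*) with a median of 0.05. The 3 with an ERSE-II ran from -0.04 (*Dnajb11*) to 0.11 (*Herpud1*), and of all 13 genes with that element 1 was called, *Tmem119*, which is not one of the 42 (0.41, edgeR adjusted p = 0.041). The 6 ER chaperones with neither element, among them *P4hb*, had a median of 0.10.

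The sensors and their transcription factors did not pass the test, with 0 of 4 called by edgeR, DESeq2 or limma voom, 0 at an unadjusted p under 0.05, and a median of -0.03. *Xbp1* had a log2 fold change of -0.01 (95% interval -0.10 to 0.08), *Atf6* -0.06 (-0.16 to 0.05), *Eif2ak3* (PERK) 0.04 (-0.06 to 0.14) and *Ern1* (IRE1) -0.11 (-0.23 to 0.01). *Ern1* had the smallest edgeR adjusted p of the 4, 0.268, and was lower in 3 of 4 mice, with mouse 2 the exception. *Xbp1* overlaps *Ccdc117* on the opposite strand, and whether the counting used strand is not given in the sources used here.

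IRE1 activity can be read from *Xbp1* itself, since the enzyme removes 26 bases from exon 4 of the main transcript and so shifts the reading frame. The GRCm39 annotation places the gap at chr11:5474278-5474303 on the plus strand, shown in capitals within chr11:5474254-5474327. It is shown because the annotated transcript without these bases was counted apart from the transcript that keeps them. A G begins the capitals and another follows them, so a gap of 26 bases starting 1 base later leaves the same transcript. The capitals therefore mark the annotated gap and do not settle the exact cut made by IRE1.
Xbp1: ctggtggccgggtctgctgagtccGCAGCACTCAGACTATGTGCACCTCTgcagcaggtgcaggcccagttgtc
The spliced transcript took 14.0%, 10.5%, 12% and 15.9% of all *Xbp1* counts in the vehicle cultures of mice 1 to 4. With bilirubin it took 6.53%, 15%, 13.8% and 12.2%. The share was higher with bilirubin in mice 2 and 3, lower in mice 1 and 4, and the groups overlapped. The mean difference was -1.24 percentage points (SD 5.37, n = 4), with p = 0.75 by an exact two-sided permutation of signs over the mice, where the smallest p that 4 pairs allow is 0.13. Without mouse 1 the mean difference was 0.853 points. Scaled for transcript length as TPM, the mean share was larger, 23.0% in vehicle and 20.9% in bilirubin cultures. The mean difference in TPM share was -2.04 points, with p = 0.75 by the same permutation of signs. The spliced transcript in the annotation also has shorter ends than the main one, and so the split made by Salmon is an estimate.

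The 4 ERAD genes, which return misfolded protein to the cytosol for degradation, gave 0 calls with edgeR, DESeq2 and limma voom, 0 at an unadjusted p under 0.05, and a median of 0.00. *Herpud1* had a log2 fold change of 0.11 (95% interval -0.04 to 0.26), the mannose-trimming factor *Edem1* -0.06 (-0.15 to 0.02), and the subunits of the retrotranslocation ligase *Sel1l* and *Syvn1* 0.01 (-0.07 to 0.09) and -0.00 (-0.10 to 0.10). *Edem1* was lower in 4 of 4 mice but by no more than 0.04 outside mouse 1, and its edgeR adjusted p was 0.418.

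In a list of further ER folding, translocation and ERAD genes, 55 were tested, of which 1 was upregulated and 2 were downregulated in edgeR (5.45%, against 7.53% of all tested genes), with a median of 0.02. The upregulated gene was *Sec61b*, a subunit of the translocation channel, at 39.2, 37.0, 42.1 and 44.6 CPM in vehicle and 42.7, 42.3, 52.0 and 52.2 CPM in bilirubin cultures. Each mouse had more with bilirubin, although the groups overlapped, and the log2 fold change was 0.21 ± 0.04 (SE) with an edgeR adjusted p of 0.0253. The membrane co-chaperone *Dnajb14* fell by 0.26 on the log2 scale (edgeR adjusted p = 0.0032), and the mannosidase-like ERAD gene *Edem3* fell by 0.21 (edgeR adjusted p = 0.0126). Both were lower in all 4 mice. *Sec61b* passed in 7 of 12 alternatives and lost its call without any of mice 2, 3 and 4, where the edgeR adjusted p was 0.0946 to 0.182. That call was also lost without the mouse in the model (0.217) and with the transcript length offset (0.0877). *Dnajb14* passed in 11 of 12, with an edgeR adjusted p of 0.0769 without the mouse in the model, and *Edem3* in 10, losing its call without mouse 3 (0.11) or mouse 4 (0.0937).

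The ATF4 arm had all of its 7 fitted fold changes below 0, where 6961 of the 13722 tested genes were below 0. The median was -0.14, but 1 of the 7 genes passed the test. That gene was *Sesn2*, whose product restrains mTORC1 when leucine is scarce, on the minus strand of chromosome 4 from 132219335 to 132237815. It stood at 21.1, 23.8, 20.4 and 18.0 CPM in vehicle cultures and at 16.9, 21.3, 17.3 and 13.2 CPM in bilirubin cultures. Mouse 2 was highest in both groups and mouse 4 lowest in vehicle and bilirubin alike, so that the groups overlapped while every mouse was lower with bilirubin. *Sesn2* fell by 0.29 on the log2 scale (SE 0.06, lower in 4 of 4 mice, edgeR adjusted p = 0.0302). It passed in 7 of 12 alternatives, whose adjusted p ranged from 0.00264 to 0.309. The call was lost without mouse 2 (0.058), mouse 3 (0.136) or mouse 4 (0.165). It was also lost with treatment alone in the model (0.309) and with the transcript length offset (0.0837).

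The other 6 genes of this arm did not pass, and their differences varied in size and sign between mice. *Trib3*, a pseudokinase induced by ATF4 and CHOP, was at 9.91, 12.3, 10.5 and 7.27 CPM in vehicle cultures and at 4.69, 16.7, 7.35 and 7.64 CPM in bilirubin cultures of mice 1 to 4. Bilirubin cultures were lower in mice 1 and 3, higher in mouse 2 and nearly equal in mouse 4. The log2 fold change was -0.24 with a 95% interval of -0.73 to 0.25 (edgeR adjusted p = 0.602). *Ddit3*, the gene of CHOP, went from 11.4, 13.2, 14.0 and 10.4 CPM to 7.68, 15, 11.7 and 10.8 CPM. Its order over the mice was that of *Trib3*, with differences of -0.57, 0.19, -0.27 and 0.06 on the log2 scale against -1.07, 0.44, -0.51 and 0.07.

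*Chac1*, which degrades glutathione, had a log2 fold change of -0.20 (95% interval -0.57 to 0.16) on 87 to 198 counts a library. Asparagine synthetase, *Asns*, had -0.14 (-0.27 to -0.01), with an unadjusted p of 0.0397 and an edgeR adjusted p of 0.212. *Atf4* itself had -0.06 (-0.17 to 0.05), and *Ppp1r15a*, the phosphatase subunit that reverses eIF2alpha phosphorylation, -0.02 (-0.17 to 0.13). ATF4 is controlled chiefly at translation, which RNA does not measure. *Ddit3* overlaps *Mars1* and *Mbd6* on the opposite strand, and all its counts fell on 1 of its 2 gene IDs.

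All 7 genes of the arm had their highest difference in mouse 2, where the median was 0.18, and 5 of 7 had their lowest in mouse 1, where it was -0.32. Medians in mice 3 and 4 were -0.19 and -0.07. Over all tested genes, 22.8% had their highest difference in mouse 2. The vehicle culture of mouse 2 was also the highest of its group for *Trib3*, *Ppp1r15a* and *Sesn2*. Without mouse 2 the median of the arm was -0.26, and without mouse 1 it was -0.02, so the size of the median depended on which mice entered. The shared sign did too, since *Trib3* and *Ppp1r15a* had fitted values of 0.02 and 0.01 without mouse 1. The ER chaperones had medians of -0.02, 0.07, 0.15 and 0.08 in mice 1 to 4, above those of the ATF4 arm in mice 1, 3 and 4 and below it in mouse 2. This contrast between the groups was described and not tested.

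**Figure D3:**
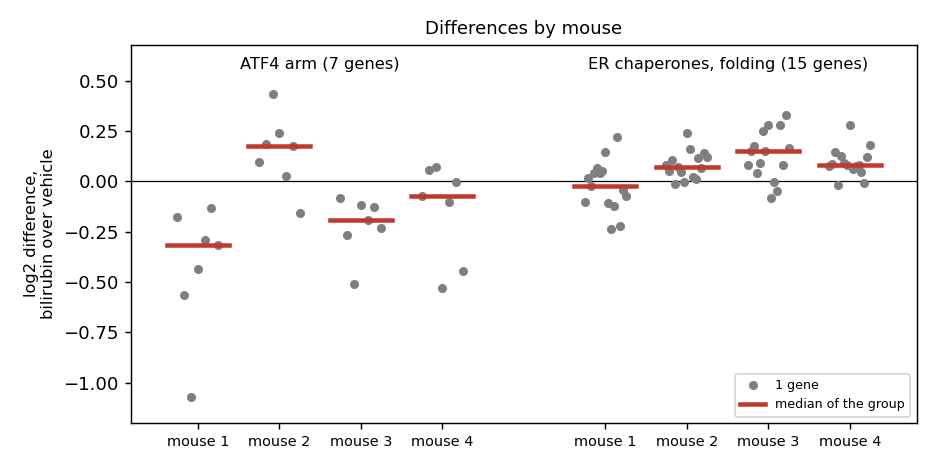
Log2 difference of bilirubin over vehicle (y axis) for each gene (grey points) of the ATF4 arm and of the ER chaperones in each mouse (x axis), with the group median as a red line. The median of the ATF4 arm lies between -0.32 in mouse 1 and 0.18 in mouse 2, and that of the ER chaperones between -0.02 and 0.15.

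Of 44 further ATF4 targets and eIF2alpha kinases tested, 2 were upregulated and 2 downregulated in edgeR, and the median was -0.04. *Slc7a11*, the cystine transporter, was at 71.8, 91.7, 73.8 and 54.5 CPM in vehicle and at 78.4, 202, 163 and 138 CPM in bilirubin cultures. It rose 0.13, 1.14, 1.14 and 1.34 on the log2 scale in mice 1 to 4, so that mouse 1 barely differed while the other 3 more than doubled. Its log2 fold change was 0.94 ± 0.17 (SE, edgeR adjusted p = 0.0123). It is also a target of the NRF2 oxidative stress pathway, and so it does not mark the ATF4 arm alone. *Gdf15*, a stress-induced cytokine, was at 4.06, 4.5, 4.49 and 3.32 CPM in vehicle and 2.01, 2.91, 1.5 and 1.52 CPM in bilirubin cultures. The groups did not overlap, and *Gdf15* fell by 1.08 on the log2 scale (SE 0.18, edgeR adjusted p = 0.00883).

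The mitochondrial folate enzyme *Mthfd1l* was upregulated by 0.26 (edgeR adjusted p = 0.0351), and the serine synthesis enzyme *Psat1*, named here after its value was seen, fell by 0.17 (edgeR adjusted p = 0.0453). The 4 calls are 9.09% of this list, against 7.53% of all tested genes, which were also called in both directions. Calls for *Slc7a11* and *Mthfd1l* held in 8 of 12 alternatives each and that for *Gdf15* in 10, with edgeR adjusted p without mouse 3 of 0.12, 0.197 and 0.0636. Calls were also lost without mouse 4 (0.0762, 0.165 and 0.0529). Those for *Slc7a11* and *Mthfd1l* were lost as well without mouse 2 (0.0739 and 0.105) and with the transcript length offset (0.0633 and 0.127).

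Of the 10 cytosolic heat shock genes, *Hspa1b* was upregulated, *Hsf1* was downregulated and 8 did not pass, with a median of 0.06. *Hspa1a* and *Hspa1b* encode the inducible HSP70 and lie next to each other on the minus strand of chromosome 17, from 35188166 to 35191132 and from 35175412 to 35178214. Their promoter windows of 300 bases matched at 296 positions, and 63.8% of all 31-base words of the *Hspa1a* transcript were also in that of *Hspa1b*, so that many reads fit both and Salmon had to divide them. *Hspa1b* was at 1.37, 1.46, 1.51 and 2.35 CPM in vehicle and 2.33, 3.71, 4.21 and 2.79 CPM in bilirubin cultures, with a log2 fold change of 0.95 ± 0.23 (SE, higher in 4 of 4 mice, edgeR adjusted p = 0.0434). It passed in 9 of 12 alternatives, and lost its call with the transcript length offset (0.0942) and without mouse 2 (0.182) or mouse 3 (0.246). *Hspa1a* was at 2.23, 1.67, 1.6 and 1.32 CPM and at 2.16, 2.80, 3.02 and 2.29 CPM, with 0.60 ± 0.21 (higher in 3 of 4 mice, edgeR adjusted p = 0.144). For both genes 1 vehicle library exceeded the lowest bilirubin library, that of mouse 4 for *Hspa1b* and that of mouse 1 for *Hspa1a*.

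Counted as 1 gene, a choice made after seeing the data, the pair was at 3.6, 3.13, 3.12 and 3.67 CPM in vehicle cultures and at 4.49, 6.51, 7.23 and 5.08 CPM in bilirubin cultures. The groups then did not overlap, and mouse 3 had the largest difference. The log2 fold change was 0.77 ± 0.17 (95% interval 0.37 to 1.16, edgeR adjusted p = 0.0319). It was 0.61 to 0.91 when a mouse was left out, with an edgeR adjusted p of 0.00289 when that was mouse 1. The call was lost when it was mouse 2 (0.144), mouse 3 (0.197) or mouse 4 (0.0773). *Hspa1b* took 38.3% to 64.2% of the counts of the pair, and the sum in a library was between 118 and 290 counts. The largest fold change among the 42 genes thus belonged to the pair with the lowest levels.

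**Figure D4:**
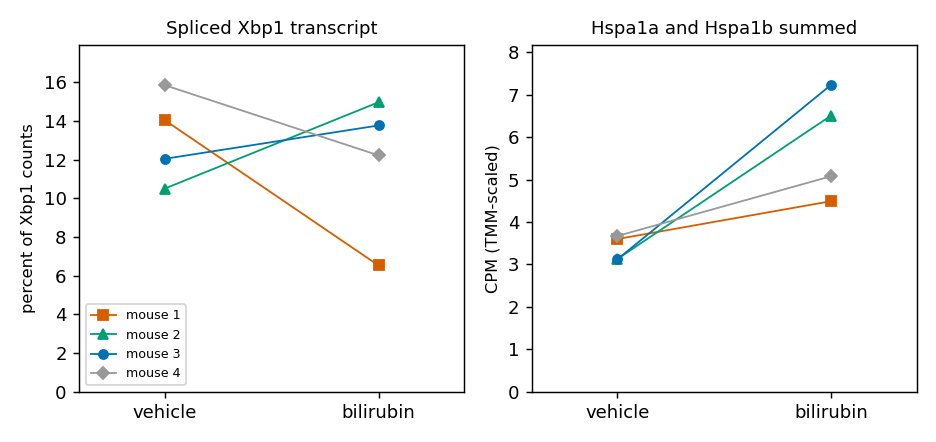
The share of *Xbp1* counts on the spliced transcript (left, percent) and the summed level of *Hspa1a* and *Hspa1b* (right, CPM) in each library, with a line for each mouse from vehicle to bilirubin. The *Xbp1* lines cross, with 2 mice rising and 2 falling, and all 4 lines of the HSP70 pair rise from 3.12 to 3.67 CPM in vehicle to 4.49 to 7.23 CPM with bilirubin.

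*Hsf1*, the transcription factor that drives heat shock genes, lies on the plus strand of chromosome 15 from 76361558 to 76388138. It was at 31, 26.4, 28.4 and 28.2 CPM in vehicle and at 27.4, 22.0, 25.6 and 24.4 CPM in bilirubin cultures. Each mouse was lower with bilirubin, and the groups overlapped because mouse 1 was highest and mouse 2 lowest in both. *Hsf1* fell by 0.20 on the log2 scale (SE 0.05, edgeR adjusted p = 0.0434). It passed in 6 of 12 alternatives, with adjusted p from 0.0228 to 0.19. The call was lost with treatment alone in the model (0.19), under DESeq2 (0.105) and with the transcript length offset (0.187). It was also lost without mouse 2 (0.172), mouse 3 (0.159) or mouse 4 (0.189). *Hsf1* overlaps *Bop1* and *Dgat1* on the opposite strand. HSF1 acts through release from HSP90 and binding to DNA as a trimer, so its RNA level does not measure its activity.

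The abundant cytosolic chaperones did not pass the test. *Hsp90aa1*, the stress-inducible HSP90, was at 454, 478, 475 and 482 CPM in vehicle and at 407, 532, 543 and 548 CPM in bilirubin cultures. The bilirubin library of mouse 1 was the lowest of all 8, and the other 3 were the highest. Its log2 fold change was 0.09 (95% interval -0.04 to 0.23, edgeR adjusted p = 0.432). *Hsph1*, the HSP110 that exchanges nucleotide on HSP70, had the same pattern, with -0.14, 0.21, 0.28 and 0.26 in mice 1 to 4 and 0.15 in the fit (-0.00 to 0.31, edgeR adjusted p = 0.242). For *Hsp90ab1* the fitted value was 0.07 (-0.01 to 0.16), for *Hspa8* 0.04 (-0.06 to 0.14), for the J-domain co-chaperone *Dnaja1* -0.01 (-0.11 to 0.10), for *Dnajb1*, another of them and a classic heat shock target, -0.08 (-0.21 to 0.06), and for the HSP70 co-chaperone *Bag3* -0.12 (-0.29 to 0.06). *Dnajb1* and *Bag3*, which HSF1 also drives, had fitted values below 0 but did not pass (edgeR adjusted p = 0.537 and 0.455). Without mouse 1 these values were -0.006 and -0.013. Those of *Hsph1*, *Hsp90aa1* and the *Hspa1a* and *Hspa1b* pair were above 0.

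The matrix chaperonin HSP60 and its lid HSP10, *Hspd1* and *Hspe1*, share the promoter stretch printed above. *Hspd1* had a log2 fold change of 0.08 (95% interval -0.03 to 0.20, edgeR adjusted p = 0.424) and *Hspe1* 0.13 (0.03 to 0.24, edgeR adjusted p = 0.143). Both had their lowest difference in mouse 1 and their highest in mouse 3. In the list of further cytosolic chaperones and co-chaperones, 0 of 54 tested genes passed in edgeR and 6 had an unadjusted p under 0.05, with a median of -0.01. In that of further mitochondrial chaperones and proteases, 0 of 18 passed, 1 had an unadjusted p under 0.05, and the median was 0.02. Over all tested genes 7.53% were called, and 2851 of 13722 had an unadjusted p under 0.05. DESeq2 called 1 of the 54 and 0 of the 18, and limma voom 0 of each.

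**Figure D5:**
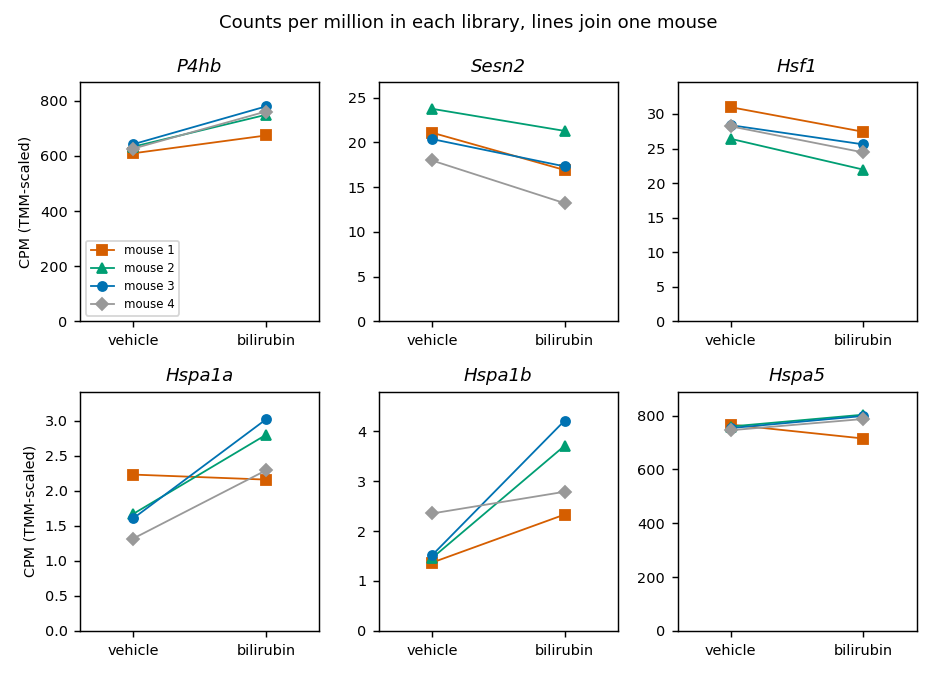
CPM after TMM scaling (y axis, from 0) in each library of 6 genes, with a line for each mouse from vehicle to bilirubin. *P4hb* and *Hspa1b* rise and *Sesn2* and *Hsf1* fall in all 4 mice, and for *Hspa1a* and *Hspa5* mouse 1 goes down while the other 3 go up.

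How many of these genes passed depended most on mouse 1. Its difference was the lowest of the 4 mice for 33 of the 42 genes (78.6%), against 32.5% of all tested genes, and it was below 0 for 31 of the 42 (73.8%), against 49.9%. In the lists of further ER, ATF4, cytosolic and mitochondrial genes it was below 0 for 65.5%, 63.6%, 79.6% and 55.6%. It was the lowest of the 4 mice for 50.9%, 52.3%, 63.0% and 44.4% of them, so this was not particular to the 42 genes. The medians over the 42 genes were -0.11, 0.08, 0.04 and 0.06 in mice 1 to 4. The bilirubin library of mouse 1 also had the fewest counts and the lowest share of spliced *Xbp1*, and the part of depth or of the culture in this was not tested. With mouse 1 left out, 11 of the 42 genes were called higher (26.2%) and 2 lower (4.76%), where 7.46% and 6.43% of all tested genes were. The 11 were *Calr*, *P4hb*, *Creld2* and *Manf* of the ER chaperones, *Hspa1a*, *Hspa1b*, *Hsp90aa1*, *Hsp90ab1* and *Hsph1* of the cytosolic genes, and both chaperonin genes, and the 2 were *Sesn2* and *Hsf1*. As mouse 1 was the lowest for 33 of the 42 genes, leaving it out raises most of their fold changes in any case. Nothing is therefore read from the contrast with all tested genes.

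The log2 fold changes of the genes called higher without mouse 1 were small outside the HSP70 pair, from 0.11 for *Hsp90ab1* to 0.26 for *P4hb*. *Hsp90aa1* had 0.18 (edgeR adjusted p without mouse 1 = 0.00233) and *Hsph1* 0.25 (0.000933). *Hspa5* had 0.08 and did not pass (0.109), and no gene of the sensors or of ERAD did. Leaving out another mouse gave fewer calls, 1 without mouse 2 (*P4hb*), 0 without mouse 3 and 1 without mouse 4 (*Hspa1b*).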

How the data were processed

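RNA sequencing of BMDM cultures from 4 mice was compared, with a bilirubin and a vehicle library from each. Per the labels and methods, the authors trimmed reads with Trim Galore 0.6.7 and Cutadapt 3.4, aligned them with STAR 2.7.9a to GRCm39 and quantified them with Salmon 1.10.1, summed by gene with tximport. The authors deposited estimated (expected) counts per gene, unscaled, and per transcript the estimated counts, TPM and effective lengths.

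Rounded counts were tested with edgeR 4.0.16 in R 4.3.3 (TMM, filterByExpr with at least 10 counts and 15 in total, mouse and treatment in the model). Log2 CPM of single libraries used a prior count of 2. Libraries were paired by the BMDM number in the labels. It was read as the mouse, since the paper describes cells from 4 mice and a mouse covariate. Deviations of same-mouse libraries from their group means correlated at 0.108, 0.134, 0.108 and -0.005, against at most 0.0751 between mice. Each mouse gave 1 culture per treatment, so p-values cover mice and cultures together. Intervals of fold changes are 95%. TPM of a gene is the sum over its transcripts. Promoter starts and positions came from GENCODE on GRCm39, the build of the files. The 42 genes, the marker lists and the pathway lists were chosen with earlier results of these data known. All 42 genes are named, with the 3 smallest adjusted p of each pathway list among those that passed and genes that overlap a member.

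The fit was repeated with no mouse term, with DESeq2 1.42.0, with voom of limma 3.58.1, with scaling by DESeq2's size factors or by library size alone, with no filter or a CPM above 1 in 4 libraries, with a transcript length offset, and leaving out each mouse. Procedures were tested on simulated data. Fractional counts, which arise where reads fit several genes, were seen in all 8 libraries for *Hspa1a*, *Hspa1b*, *Hspa8*, *Hsp90aa1*, *Hspd1* and *Hspe1*.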

Additional observations from a re-analysis of the deposited data

Results flagged for a closer look

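Of 86 groups of 4 libraries examined, in 2 a library stood apart from the other 3, where chance sets apart about 1 in 20. *Pdia3* had a log2 CPM of 9.256 in the bilirubin culture of mouse 4, above 9.168 to 9.171 in the others. *Hsp90aa1* had 8.671 in the bilirubin culture of mouse 1, below 9.056 to 9.097 in the others. No explanation of either was tested.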

How the results depend on the processing

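The count of all genes past the threshold was 1033 and became 686 without the pairing by mouse (no replicate block), 1692 without the filter on low counts, 579 with the transcript length offset, and 377 to 1910 when a mouse was left out. With libraries scaled by their size alone, 48.66% of calls were higher with bilirubin, against 59.63% with TMM scaling. Of the 42 genes, 2 were upregulated, which became 4 without the filter (with *Sdf2l1* and *Hspa1a*), 1 with the length offset and 0 to 11 when a mouse was left out. The 2 downregulated genes became 0 without the block, 1 under DESeq2, 0 with the length offset and 0 to 2 when a mouse was left out, and mice 2, 3 and 4 each removed both. The cause of these moves was not tested. Of 504 single-gene values under the 12 alternatives, 456 kept their direction and side of the threshold, 16 lost a call, 11 gained one, and 21 changed sign, in 12 genes, none of which had been called. The medians of the 6 groups and the *Xbp1* share moved by less than 1 SD over the mice. Leaving out 1 of 4 mice can hardly move a value that far, so this does not show that they were stable. The median of the ATF4 arm was -0.14 in the main fit and -0.02 without mouse 1. The ERAD median was on either side of 0 under different alternatives. *Hspa1a* and *Hspa1b* had the lowest levels of the 42 genes, and the part of depth or of shared reads in their spread was not tested. In the main fit of 4 mice, the smallest log2 fold change called among the 42 genes was that of *Hsf1* (-0.20). Larger ones, such as those of *Trib3* (-0.24) and *Hspa1a* (0.60), were not called.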
